A study of Mus musculus with 7 samples.

Results

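The Rab family of small GTPases was examined gene by gene for occupancy by the vitamin D receptor (VDR) in the mouse small intestine. Members were the protein-coding genes whose symbol in the mm9 annotation is Rab, a number and at most 1 letter, which gave 56 genes of 22367. The rule used symbols only and no measured value, and 11 other protein-coding symbols that begin with Rab and a digit, such as Rab7l1 and the Rab11 adaptor genes, did not match it. The annotation gives Rab1a, Rab6a, Rab7a and Rab9a under their older symbols Rab1, Rab6, Rab7 and Rab9. VDR was mapped by chromatin immunoprecipitation and sequencing (ChIP-seq) in epithelial cells released with EDTA from the duodenum and jejunum of wild-type mice on standard chow. The hormone group comprised 3 libraries from mice given the active vitamin D hormone 1,25(OH)2D3, dosed by weight (10 ng per g), with tissue taken after 1 h. It was set against 3 libraries from mice given vehicle, and the animals of both groups were 8 weeks old, with no allele named. The study asked which genes the hormone-bound receptor reaches in this tissue. The files hold binding sites and no expression, so the labelled tissue could not be checked against cell type markers.

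Rab proteins switch between a GDP-bound form held in the cytosol and a GTP-bound form on membranes, where each marks a compartment and recruits motors, tethers and adaptors to its vesicles. Exchange factors load GTP, GTPase-activating proteins end the signal, and GDP dissociation inhibitors take the protein off the membrane. In enterocytes, Rab8a, Rab11a and the motor myosin Vb carry transporters and enzymes to the apical brush border, while other members serve endocytosis, the Golgi, lysosomes and lipid droplets.

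The 1,25(OH)2D3 libraries held 17152461, 17438643 and 66524392 tags (replicates 1, 2 and 3) and 25510, 30390 and 41722 peaks. The vehicle libraries held 19733260, 15991198 and 68560701 tags and 8756, 14888 and 48425 peaks. Replicate 3 was therefore the deep library of each group, and vehicle replicate 3 had the longest list of the 6. The share of tags in peaks was 11.86%, 15.89% and 18.96% with 1,25(OH)2D3 and 2.58%, 4.81% and 8.1% with vehicle. It was thus lower in every vehicle library than in every hormone library. The tag threshold for a peak was 10, 11 and 20 with 1,25(OH)2D3 and 11, 10 and 17 with vehicle. A peak list states only that a site passed the authors' threshold, so each value here is a number of peaks and not an amount of receptor. The series names 3 mice but does not tie a library to an animal, so a p-value measures only how far these libraries scatter, which may be technical. With 3 libraries against 3, the smallest two-sided exact permutation p is 0.1, and no single gene could pass 0.05.

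Promoters were scored first, counting a Rab gene when the centre of a peak lay within 1 kb of any of its annotated transcription starts. After 1,25(OH)2D3, 8, 15 and 18 Rab genes had such a peak, against 2, 7 and 9 with vehicle. The 2 groups overlap, since vehicle replicate 3 had more Rab promoters than 1,25(OH)2D3 replicate 1. Group means were 13.7 ± 5.13 Rab genes with 1,25(OH)2D3 and 6 ± 3.61 with vehicle (SD, n = 3 each), a difference of 7.67 genes. As a share of the family this was 24.4% ± 9.16 with 1,25(OH)2D3 and 10.7% ± 6.44 with vehicle. All protein-coding genes gave 20.6% ± 3.89 with 1,25(OH)2D3 and 9.41% ± 4.20 with vehicle. When every list was shortened to the 8756 peaks that stand first in it, the length of the shortest list, the difference for Rab genes was 0.667 genes. This cut gives both groups the same total of peaks, so a small difference is largely built in and shows no cause.

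**Figure D1:**
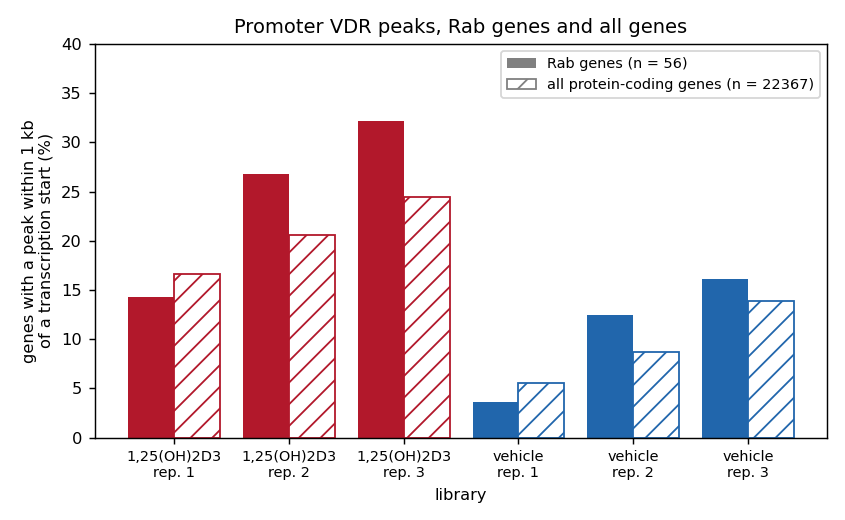
Share of genes with a VDR peak centred within 1 kb of a transcription start (y axis, percent) in each of the 6 libraries (x axis), for the 56 Rab genes (filled bars) and all 22367 protein-coding genes (hatched bars). Rab genes ran 14.3%, 26.8% and 32.1% in the 1,25(OH)2D3 libraries and 3.57%, 12.5% and 16.1% in the vehicle libraries, below the share of all genes in replicate 1 of both groups and above it in replicates 2 and 3.

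Peaks of the 6 libraries that overlapped by at least 1 bp were merged into 87029 regions. A promoter region in at least 1 library was found at 24 of the 56 Rab genes (42.9%), against 33.7% of all protein-coding genes. At 15 Rab genes at least 2 of the 3 hormone libraries held 1 (26.8%), against 18.8% of all genes. The region was present in all 3 1,25(OH)2D3 libraries at 6 Rab genes (10.7%), against 12.1% of all genes: Rab17, Rab22a, Rab24, Rab25, Rab27b and Rab43. The Rab share was thus higher than that of all genes for a promoter region seen at all. It was close to it for one seen in every hormone library. Neither gap was tested, and in replicate 1 of both groups the Rab share was below that of all genes. The remaining 32 Rab genes had no promoter region.

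Rab25 was the only Rab gene with a hormone-only promoter region, meaning 1 seen in each 1,25(OH)2D3 library and never with vehicle (1 of 56, against 4.21% of all genes). With lists of equal length the Rab25 call was lost, and the count was 0. Rab25 (ENSMUSG00000008601.6, chr3:88345951-88352222, minus strand, mm9) is an epithelial member of the Rab11 group that works in apical recycling. Its region, chr3:88352088-88352550, is centred 97 bp upstream of the start and overlaps no other gene's promoter window. A list percentile, the position of a peak in its library's list with high values near the top, averaged 60.4 for it over the 3 hormone libraries. The percentile is a position and not a measured occupancy. The middle 201 bp of this region and of the 2 Rab promoter regions with a DR3 (the VDR element, a direct repeat of hexamers with a 3 bp spacer) are printed because they hold the hormone-only promoter and the only DR3 matches at a Rab start. Each is written 5′ to 3′ on its gene's strand from the mm9 genome: Rab25 at chr3:88352219-88352419 (minus strand), Rab17 at chr1:92864107-92864307 (minus strand) and Rab22a at chr2:173484930-173485130 (plus strand). Capitals mark a cyclic AMP response element (TGACGTCA) in Rab25 and a DR3 with 1 mismatch in Rab17 and Rab22a, which in Rab22a lies on the opposite strand.
Rab25: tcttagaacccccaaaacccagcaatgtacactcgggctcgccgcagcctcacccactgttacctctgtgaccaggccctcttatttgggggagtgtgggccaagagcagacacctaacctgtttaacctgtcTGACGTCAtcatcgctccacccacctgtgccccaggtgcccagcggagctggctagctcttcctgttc
Rab17: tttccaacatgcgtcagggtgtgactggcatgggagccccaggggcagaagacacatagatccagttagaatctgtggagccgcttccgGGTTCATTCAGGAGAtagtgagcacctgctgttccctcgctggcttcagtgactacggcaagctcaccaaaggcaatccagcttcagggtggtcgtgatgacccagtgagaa
Rab22a: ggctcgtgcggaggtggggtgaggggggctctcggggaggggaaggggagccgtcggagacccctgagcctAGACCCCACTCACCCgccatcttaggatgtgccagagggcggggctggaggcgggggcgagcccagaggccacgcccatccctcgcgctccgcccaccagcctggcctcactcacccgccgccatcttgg

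Rab17 (ENSMUSG00000026304.7, chr1:92854710-92866238, minus strand), an epithelial Rab of transcytosis and apical recycling, had the highest placed of the promoter regions seen in every 1,25(OH)2D3 library. The region is centred 13 bp upstream of an internal start, 2.03 kb downstream of the outermost one, and averaged the 92.9th list percentile. It was present in all 3 1,25(OH)2D3 libraries and in vehicle replicates 2 and 3. Rab22a (ENSMUSG00000027519.4, chr2:173485261-173532844, plus strand), which acts between early and recycling endosomes, had 2 promoter regions, centred 231 bp upstream and 921 bp downstream of the closest start. Both were present in all 3 1,25(OH)2D3 libraries and in vehicle replicate 3 only. The promoter region of Rab24, a Rab linked to autophagy, was centred 679 bp upstream and also lies within 1 kb of the start of Prelid1. It and the Rab27b region, which is centred at an internal start 88.3 kb downstream of the outermost one, were in all 3 1,25(OH)2D3 libraries, with peaks in 2 vehicle libraries for Rab24 and in 1 for Rab27b.

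Rab43, a Rab of the Golgi, was the only Rab gene with a promoter region in all 6 libraries (1 of 56, against 2.47% of all genes). The Rab43 (ENSMUSG00000030055.9, chr6:87738847-87762158, minus strand) region, chr6:87758577-87758963, sits at the edge of the window, centred 981 bp downstream of the closest start. Its peaks were centred 971, 932 and 1027 bp from that start in the 1,25(OH)2D3 libraries and 1027, 1044 and 998 bp in the vehicle libraries. The count of 1 therefore rests on where the window ends, and it was 0 with a window of 500 bp. Leaving out vehicle replicate 1, the shortest list, gave 3 genes with the region in every library kept, Rab17, Rab24 and Rab43. Without 1,25(OH)2D3 replicate 2 the count was 0.

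Some promoter regions were seen in 1,25(OH)2D3 replicates 2 and 3 and in no other library. They were found at Rab1 and Rab2b, which serve traffic between the endoplasmic reticulum and Golgi, at Rab2a, at the autophagy and Golgi Rab33b, at the apical delivery Rab8a and at Rab23, a regulator of Hedgehog signalling. Rab2a also had another promoter region, seen in vehicle replicate 1 only and centred 79 bp upstream of its start. Leaving out 1,25(OH)2D3 replicate 1, the hormone library with the shortest list, raised the count of hormone-only promoters to 7 by adding these 6 genes to Rab25. The same count was 2 when vehicle replicate 2 or vehicle replicate 3 was dropped. No share over all genes was computed for these counts, so they cannot be called many or few. Over the whole family, the 24 genes had 27 promoter regions, of which 10 were centred upstream and 17 downstream of the closest start. Their median distance was 261 bp, 19 lay within 500 bp, and 9 were found in 1 library only. Their median list percentile was 61.9, against 58.3 for all 8834 promoter regions.

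Peaks were next counted within 50 kb of each gene body, a window that takes in introns and neighbouring genes. The mean was 2.82, 3.48 and 4.57 peaks per Rab gene in the 1,25(OH)2D3 libraries and 0.982, 1.68 and 3.84 in the vehicle libraries. The vehicle libraries spread widely, with replicate 3 above 1,25(OH)2D3 replicates 1 and 2. Group means were 3.63 ± 0.884 with 1,25(OH)2D3 and 2.17 ± 1.49 with vehicle (SD, n = 3 each), against 3.20 ± 0.704 with 1,25(OH)2D3 and 1.94 ± 1.33 with vehicle for all genes. The ratio of the Rab mean to the mean of all genes was 1.09, 1.14 and 1.15 in the 1,25(OH)2D3 libraries and 1.10, 1.13 and 1.12 in the vehicle libraries. That ratio moved little between the groups. With lists of equal length, where both groups have the same total of peaks, the difference of 1.46 peaks fell to 0.0774.

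Of the 56 Rab genes, 13 (23.2%) had more peaks within 50 kb in every 1,25(OH)2D3 library than in every vehicle library, against 16.0% of all genes. These were Rab11a, Rab1b, Rab20, Rab21, Rab24, Rab25, Rab26, Rab3a, Rab40c, Rab43, Rab4a, Rab4b and Rab5b, each with an exact permutation p of 0.1 (two-sided, n = 3 each), the smallest possible. None had fewer in every 1,25(OH)2D3 library (0 of 56, against 0.0447% of all genes). Same-numbered libraries deviated together over all genes, though weakly for replicate 2. Set pair by pair, 21 Rab genes had more peaks with 1,25(OH)2D3 in all 3 pairs, against 33.2% of all genes, and 0 had fewer, against 0.156%. Among the shallow libraries alone, replicates 1 and 2, 24 Rab genes (42.9%) were higher with 1,25(OH)2D3 in every comparison and 0 lower, against 43.3% and 0.197% of all genes. In the deep pair alone, replicate 3, 29 Rab genes (51.8%) had more peaks with 1,25(OH)2D3 and 22 (39.3%) had fewer, against 44.9% and 32.3% of all genes. With lists of equal length the count of 13 became 2. Without vehicle replicate 3 it was 23 and without 1,25(OH)2D3 replicate 1 it was 20. The count thus depended on which libraries and peaks were kept, and the reason was not tested.

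**Figure D2:**
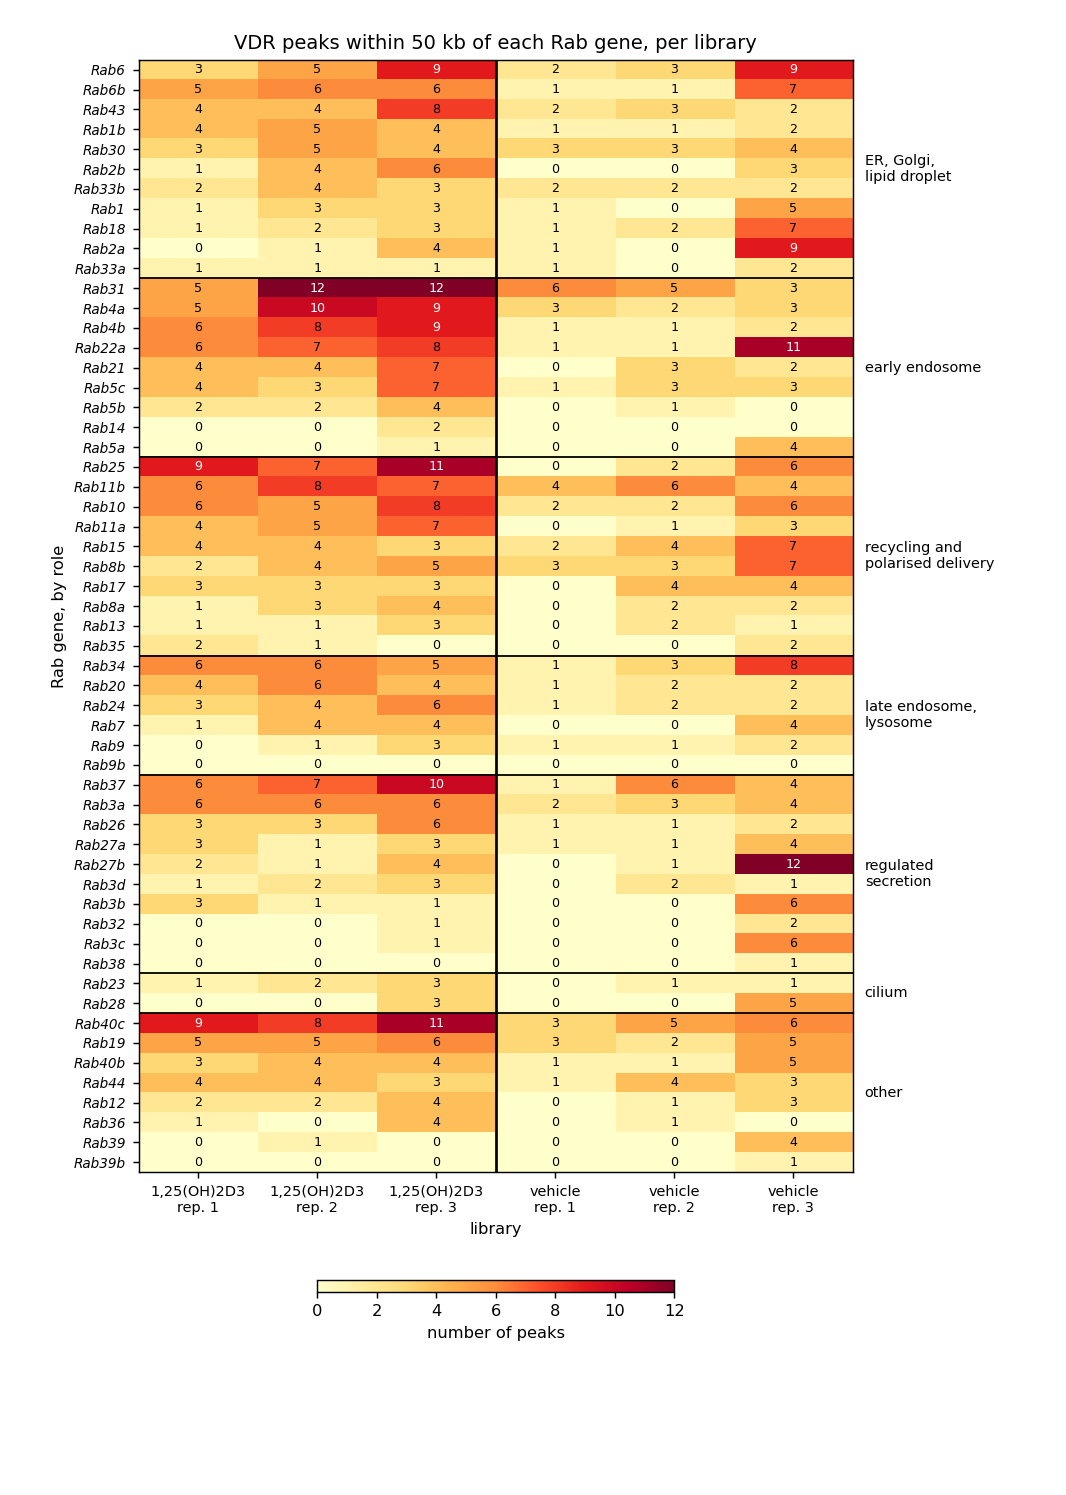
Number of VDR peaks centred within 50 kb of the gene body (colour and printed number) for the 56 Rab genes (rows, grouped by role) in the 3 1,25(OH)2D3 and 3 vehicle libraries (columns). Rab25, Rab4a, Rab4b and Rab40c are darker in every 1,25(OH)2D3 library than in every vehicle library, while Rab27b and Rab2a are dark mainly in vehicle replicate 3, with 12 and 9 peaks.

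By mean, 40 Rab genes (71.4%) had more peaks with 1,25(OH)2D3, against 63.6% of all genes, 13 (23.2%) had fewer, against 20.4%, and 3 were equal. The median difference was 1.33 peaks (range -2 to 6.33), against a median of 0.667 over all genes. A peak was found in every 1,25(OH)2D3 library for 43 Rab genes (76.8%), against 65.4% of all genes, and in every vehicle library for 28 of 56, against 40.8%. Rab38 and Rab39b had no peak with 1,25(OH)2D3, and Rab9b had none in any library. Rab genes were longer than most, with a median of 23.0 kb against 15.4 kb over all genes. Across the 56 genes, Spearman's rho of gene length with the peak number was 0.0192 for the 1,25(OH)2D3 mean and 0.491 for vehicle replicate 3. Over all genes it was 0.274 and 0.424. These values describe genes that share the same libraries.

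**Figure D3:**
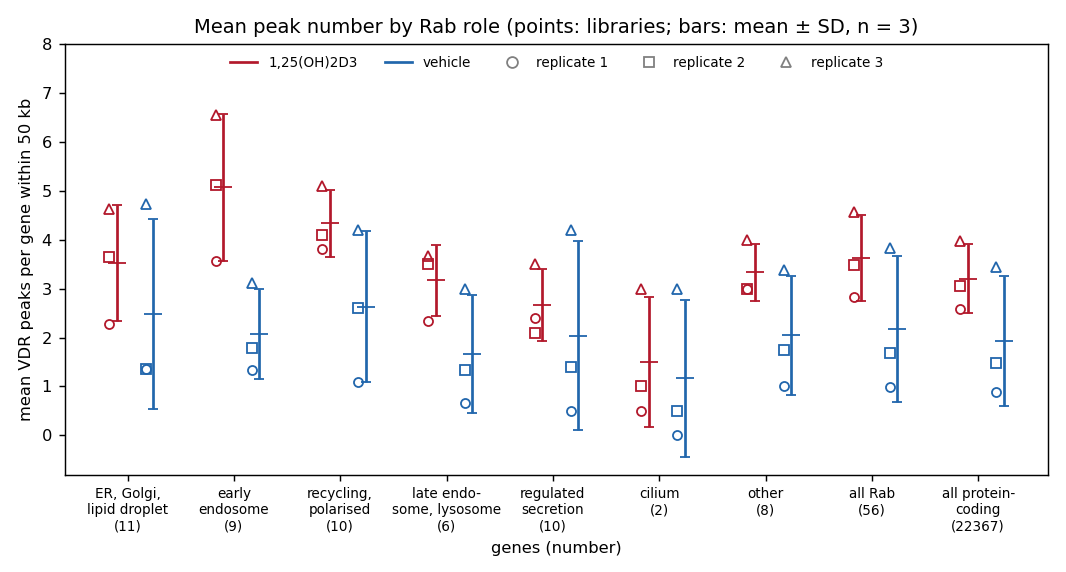
Mean number of VDR peaks per gene within 50 kb (y axis) for each role among the Rab genes, for all Rab genes and for all protein-coding genes (x axis, number of genes in brackets). Points are libraries, red for 1,25(OH)2D3 and blue for vehicle, and bars give the mean ± SD over 3 libraries; the early endosome genes have the widest gap, 5.07 with 1,25(OH)2D3 and 2.07 with vehicle.

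The Rabs of recycling and polarised delivery numbered 10. A promoter region in at least 1 library was found at 8 of the 10, against 33.7% of all genes, and in every 1,25(OH)2D3 library at Rab17 and Rab25. The 10 genes averaged 4.33 ± 0.681 peaks per gene within 50 kb with 1,25(OH)2D3 and 2.63 ± 1.55 with vehicle (SD, n = 3 each). Of the 10, 2 were higher in every hormone library, Rab11a and Rab25, which is near the 16.0% of all genes. Rab25 had 9, 7 and 11 peaks in the 1,25(OH)2D3 libraries and 0, 2 and 6 in the vehicle libraries. Its groups came within 1 peak of each other, and its difference of 6.33 peaks was, with that of Rab4b, the largest of the family in the 50 kb window. Within 20 kb the difference was 3 peaks for Rab25 and 4.33 for Rab4b, and within 10 kb it was 1.67 and 3, below the 3.67 of Rab37. Of the 16 regions around Rab25, only the promoter region itself had Rab25 as its nearest start. A second hormone-only region, chr3:88299059-88299443, lies in an intron of Lmna 53.0 kb downstream. The others in all 3 1,25(OH)2D3 libraries each had 1 vehicle library, including one at the shared start region of Lamtor2 and Ubqln4, 5.01 kb upstream at the 85.9th list percentile.

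Rab11a (ENSMUSG00000004771.6, chr9:64563106-64585565, minus strand), the Rab of the apical recycling endosome, had 4, 5 and 7 peaks with 1,25(OH)2D3 and 0, 1 and 3 with vehicle. The groups did not overlap, and Rab11a was the nearest start for all 9 of its regions. Its 3 hormone-only regions lie 35.5, 45.5 and 70.0 kb downstream of its outermost start, in introns of the neighbouring gene Megf11. Within 20 kb the difference for Rab11a shrank to 1 peak, and within 10 kb it was 0. The promoter region, 262 bp upstream, was seen only in replicate 3 of either group. Rab11b (ENSMUSG00000077450.5, chr17:33882895-33897475, minus strand), its close relative, had 6, 8 and 7 peaks with 1,25(OH)2D3 and 4, 6 and 4 with vehicle. The groups met at 6 peaks (exact permutation p = 0.2), and 2 of its 12 regions were present in all 6 libraries. Both of these lie at Angptl4, a neighbouring lipase inhibitor gene, one in an exon and one at its start.

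Rab10 (ENSMUSG00000020671.8, chr12:3247430-3309969, minus strand), which serves basolateral and insulin-responsive delivery, had 6, 5 and 8 peaks with 1,25(OH)2D3 and 2, 2 and 6 with vehicle. The vehicle deep library reached the hormone range (exact permutation p = 0.3). A region in an intron of Rab10 itself, chr12:3284406-3284759, was present in all 6 libraries at the 88.8th list percentile, with Rab10 as the nearest start. Rab17 had 3, 3 and 3 peaks with 1,25(OH)2D3 and 0, 4 and 4 with vehicle, so the hormone libraries lay between the vehicle ones (exact permutation p = 1). Without vehicle replicate 1 it was the 1 Rab gene lower in every hormone library. Rab8a (ENSMUSG00000003037.9, chr8:74685099-74707803, plus strand), needed for apical delivery in enterocytes, had 1, 3 and 4 peaks with 1,25(OH)2D3 and 0, 2 and 2 with vehicle. Its groups overlapped (exact permutation p = 0.4). The other recycling members, Rab13 of tight junctions, Rab15, Rab35 and Rab8b, had from 0 to 5 peaks with 1,25(OH)2D3 and from 0 to 7 with vehicle.

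**Figure D4:**
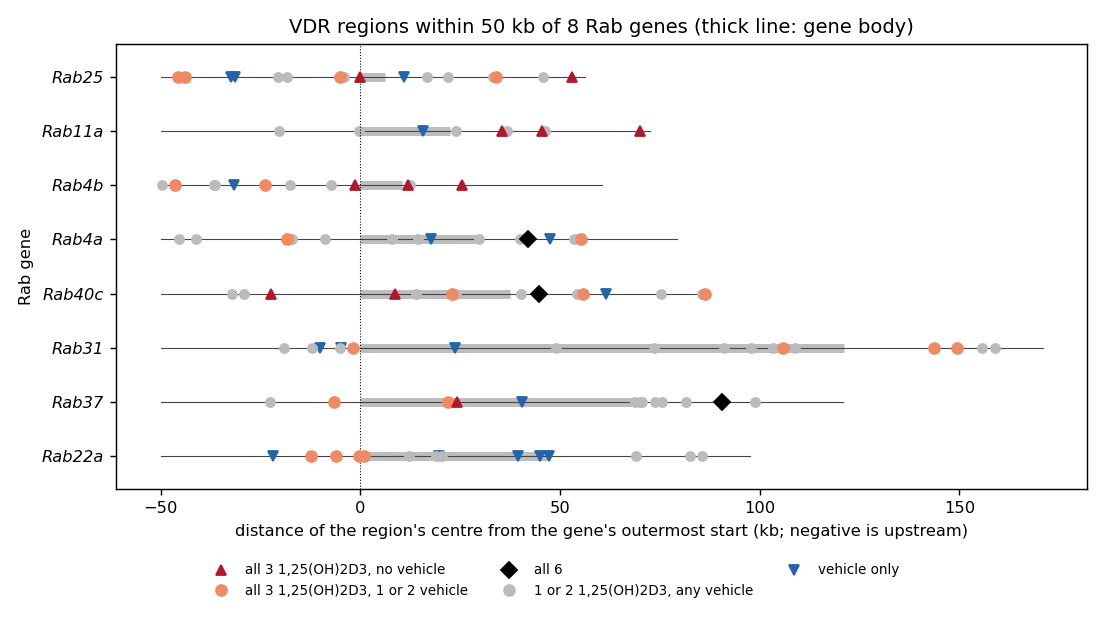
Merged VDR regions within 50 kb of 8 Rab genes (rows), placed by the distance of their centre from the gene's outermost start (x axis, kb, negative is upstream); the thick line is the gene body and symbols give the libraries that hold the region. Hormone-only regions (red triangles) lie, among other places, at the start of Rab25, downstream of Rab11a and on either side of Rab4b, and regions in all 6 libraries (black diamonds) are seen for Rab4a, Rab40c and Rab37.

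Early endosome Rabs had the widest gap between the groups by mean, and few had a promoter region. The 9 genes averaged 5.07 ± 1.50 peaks with 1,25(OH)2D3 and 2.07 ± 0.925 with vehicle (SD, n = 3 each), and 4 of them, Rab21, Rab4a, Rab4b and Rab5b, were higher in every hormone library, against 16.0% of all genes. Rab22a was the only 1 of the 9 with a promoter region, against 33.7% of all genes. Rab4b (ENSMUSG00000053291.9, chr7:27953443-27963915, minus strand), of the fast recycling route to the surface, had 6, 8 and 9 peaks with 1,25(OH)2D3 and 1, 1 and 2 with vehicle. The groups lay 4 peaks apart. None of its 12 regions had Rab4b as the nearest start: its 3 hormone-only regions lie at the starts of Mia1, Egln2 and Cyp2t4. The hormone-only region that holds the DR3 printed below is centred 1.38 kb upstream of the Rab4b start, outside the 1 kb window. Egln2 encodes an oxygen-sensing prolyl hydroxylase, and Mia1 a secreted protein of cartilage. Rab4a (ENSMUSG00000019478.9, chr8:126329885-126359187, plus strand), of the same route, had 5, 10 and 9 peaks with 1,25(OH)2D3 and 3, 2 and 3 with vehicle. These groups did not overlap. Rab4a was the nearest start for 8 of its 15 regions, and it had no hormone-only region. A region 42.0 kb downstream was present in all 6 libraries.

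Rab31 (ENSMUSG00000056515.7, chr17:66001066-66122092, minus strand), which links the Golgi to endosomes, had the highest mean of the family, with 5, 12 and 12 peaks with 1,25(OH)2D3 and 6, 5 and 3 with vehicle. Its 1,25(OH)2D3 replicate 1 lay within the vehicle range (exact permutation p = 0.3), and 4 of its regions were shared by all 3 1,25(OH)2D3 libraries and vehicle replicates 1 and 2. Rab22a had 6, 7 and 8 peaks with 1,25(OH)2D3 and 1, 1 and 11 with vehicle, so that vehicle replicate 3 stood above all the others (exact permutation p = 0.4). Rab5a (ENSMUSG00000017831.7, chr17:53618559-53646996, plus strand), the organiser of early endosome fusion, had 0, 0 and 1 peaks with 1,25(OH)2D3 and 0, 0 and 4 with vehicle. Only the deep libraries held any peak near it (exact permutation p = 1). Its relatives differed: Rab5b had 2, 2 and 4 peaks with 1,25(OH)2D3 and 0, 1 and 0 with vehicle, and Rab5c had 4, 3 and 7 with 1,25(OH)2D3 and 1, 3 and 3 with vehicle. The groups did not overlap for Rab5b and met at 3 peaks for Rab5c. Rab14 had peaks in 1,25(OH)2D3 replicate 3 alone, 1 of them 1024 bp from a start and just outside the promoter window.

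Rabs of the endoplasmic reticulum, Golgi and lipid droplets had a promoter region in at least 1 library at 9 of 11 genes, against 33.7% of all genes, and in every 1,25(OH)2D3 library at 1, Rab43. They averaged 3.52 ± 1.19 peaks within 50 kb with 1,25(OH)2D3 and 2.48 ± 1.94 with vehicle (SD, n = 3 each). Rab1b and Rab43 were higher in every hormone library (2 of 11, against 16.0% of all genes). Rab43 had 4, 4 and 8 peaks with 1,25(OH)2D3 and 2, 3 and 2 with vehicle. Rab6 (ENSMUSG00000030704.8, chr7:107755924-107789782, plus strand), of retrograde Golgi traffic, had 3, 5 and 9 peaks with 1,25(OH)2D3 and 2, 3 and 9 with vehicle. The deep libraries of the 2 groups were equal for it (exact permutation p = 0.8). Rab18 (ENSMUSG00000073639.4), a Rab of lipid droplets, had 1, 2 and 3 peaks with 1,25(OH)2D3 and 1, 2 and 7 with vehicle. Rab2a (ENSMUSG00000047187.9) had 0, 1 and 4 peaks with 1,25(OH)2D3 and 1, 0 and 9 with vehicle. For both, vehicle replicate 3 alone was above every hormone library (exact permutation p = 0.9 each), and it alone held 8 of the 13 regions around Rab2a. Rab1b, of early secretory traffic, had 4, 5 and 4 peaks with 1,25(OH)2D3 and 1, 1 and 2 with vehicle, and its hormone-only region is the promoter of Rin1, an exchange factor for Rab5.

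Late endosome, lysosome and autophagy Rabs averaged 3.17 ± 0.726 peaks with 1,25(OH)2D3 and 1.67 ± 1.20 with vehicle (SD, n = 3 each, 6 genes). Rab20, a Rab of phagosomes, and Rab24 were higher in every hormone library (2 of 6, against 16.0% of all genes). Rab20 had 4, 6 and 4 peaks with 1,25(OH)2D3 and 1, 2 and 2 with vehicle. It was the nearest start for 4 of its 6 regions, none of them hormone-only. Rab7 (ENSMUSG00000079477.3, chr6:87949100-87995264, minus strand), which drives fusion of late endosomes with lysosomes, had 1, 4 and 4 peaks with 1,25(OH)2D3 and 0, 0 and 4 with vehicle. Its groups overlapped through vehicle replicate 3 (exact permutation p = 0.4). Rab34 (ENSMUSG00000002059.11, chr11:78001932-78005695, plus strand), which positions lysosomes, had 6, 6 and 5 peaks with 1,25(OH)2D3 and 1, 3 and 8 with vehicle. Again the vehicle deep library was the highest (exact permutation p = 0.6).

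Regulated secretion Rabs were evenly divided, with 5 of 10 higher and 5 lower by mean, against 63.6% and 20.4% of all genes. For each of the 5 lower genes, Rab27b, Rab32, Rab38, Rab3b and Rab3c, vehicle replicate 3 was above every hormone library. They averaged 2.67 ± 0.737 peaks with 1,25(OH)2D3 and 2.03 ± 1.93 with vehicle (SD, n = 3 each). Rab3a (ENSMUSG00000031840.6, chr8:73278578-73282576, plus strand), known from synaptic vesicles, had 6, 6 and 6 peaks with 1,25(OH)2D3 and 2, 3 and 4 with vehicle. It and Rab26, a Rab of secretory granules, were the members higher in every hormone library (2 of 10, against 16.0% of all genes). Rab37 (ENSMUSG00000020732.7, chr11:114952745-115023550, plus strand), of secretory granules, had 6, 7 and 10 peaks with 1,25(OH)2D3 and 1, 6 and 4 with vehicle. The groups met at 6 peaks (exact permutation p = 0.2). A region 90.6 kb downstream of its start was present in all 6 libraries at the 99.6th list percentile, with Tmem104 as its nearest start. Rab27a (ENSMUSG00000032202.4, chr9:72892672-72945399, plus strand), of lysosome-related organelles, had 3, 1 and 3 peaks with 1,25(OH)2D3 and 1, 1 and 4 with vehicle (exact permutation p = 1). Its relative Rab27b (ENSMUSG00000024511.9) had 2, 1 and 4 peaks with 1,25(OH)2D3 and 0, 1 and 12 with vehicle, the widest spread of any Rab gene in the vehicle group. Vehicle replicate 3 alone held 12 of its 16 regions, and 6 of 7 around Rab3c (ENSMUSG00000021700.8), which had 0, 0 and 1 peaks with 1,25(OH)2D3 and 0, 0 and 6 with vehicle. For neither gene did the test reach its smallest value (exact permutation p = 1 each).

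Among the other Rab genes, Rab40c (ENSMUSG00000025730.7, chr17:26019059-26056672, minus strand), a Rab with a SOCS box that works with ubiquitin ligases, had 9, 8 and 11 peaks with 1,25(OH)2D3 and 3, 5 and 6 with vehicle. The groups did not overlap. A hormone-only region lies in its own intron, 8.74 kb from the outermost start, and Rab40c is its nearest start. Rab39 (ENSMUSG00000055069.3) had 0, 1 and 0 peaks with 1,25(OH)2D3 and 0, 0 and 4 with vehicle, and all 4 of these were regions found in vehicle replicate 3 alone. Rab23 and Rab28, linked to cilia, had from 0 to 3 peaks with 1,25(OH)2D3 and from 0 to 5 with vehicle. Across the family, vehicle replicate 3 was above both other vehicle libraries for 36 genes (64.3%), against 68.8% of all genes. It was above every 1,25(OH)2D3 library for 21 (37.5%), against 29.2%. The part that depth, list length and the share of tags in peaks had in the genes leaning towards vehicle was not tested.

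The 467 merged regions within 50 kb of a Rab gene were each near 1 Rab gene only, and 172 (36.8%) had a Rab gene as the nearest start. Hormone-only regions numbered 27 (5.78%), against 6.02% of the regions near any protein-coding gene. Regions in all 6 libraries numbered 18 (3.85%), against 5.50%, and 121 (25.9%) were found in vehicle replicate 3 alone, against 31.2%. Regions of the reverse kind, in each vehicle library and never with hormone, numbered 0, against 0.0314% of the regions near any protein-coding gene. A Rab gene was the nearest start for 7 of the 27 hormone-only regions and 4 of the 18 in all 6. Counted by gene, 46 of 56 Rab genes (82.1%) had within 50 kb a region that 2 or more hormone libraries held, against 70.2% of all genes. A hormone-only region lay near 18 (32.1%), against 33.2%, and a region in all 6 libraries near 15 (26.8%), against 29.1%. With lists of equal length the count of 18 was 4 and the count of 15 was 12. The count of 18 was 32 without 1,25(OH)2D3 replicate 1, and the count of 15 was 23 without vehicle replicate 1. Within 20 kb these counts were 9 and 8.

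The regions near Rab genes held a large share that fell on a promoter, mostly of another gene. The share centred within 1 kb of any start was 25.3% (118 of 467, 95% Wilson interval 21.5 to 29.4), against 12.6% of the regions near any protein-coding gene. Exons held 8.57% against 3.25%, introns 42.4% against 50.7%, and the space between genes 23.8% against 33.4%. Only 27 of the 118 promoter regions belong to a Rab gene, the others to neighbours. Several of the highest placed sites in all 6 libraries were such neighbours: the start shared by Fntb and Churc1 near Rab15 at the 99.8th list percentile, the start of the cell cycle inhibitor gene Cdkn1a 40.5 kb upstream of Rab44 at the 94.5th, and that of Zfp385c near Rab5c at the 92.2nd. Fntb encodes the beta subunit of protein farnesyltransferase. The intervals here and below cover counting error only.

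DR3 elements with at most 1 mismatch were searched on both strands within 100 bp of each centre. They were found in 2 of the 27 Rab promoter regions (7.41%, interval 2.06 to 23.4), those of Rab17 and Rab22a, against 10.7% of all promoter regions. Of the 467 regions within 50 kb, 55 (11.8%, interval 9.16 to 15.0) held one, against 10.9% of all regions, and 4.71% of windows placed 5 kb to the right. Of the 104 regions present in all 3 1,25(OH)2D3 libraries, 25 (24.0%, interval 16.8 to 33.1) held one, against 21.7% of all such regions and 2.88% of the shifted windows. The Rab shares lie close to those of all regions, and the intervals include them. A match is a string of letters and not a tested site.

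**Figure D5:**
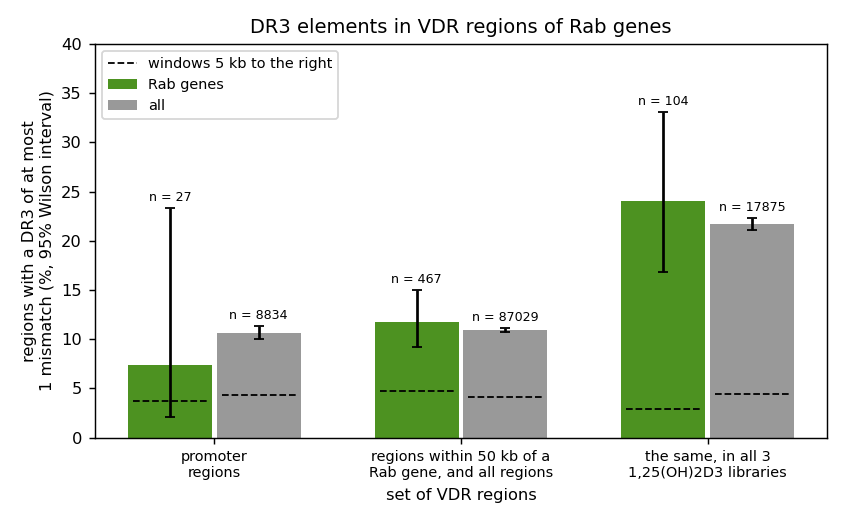
Share of VDR regions with a DR3 of at most 1 mismatch within 100 bp of the centre (y axis, percent, with 95% Wilson intervals) in 3 sets of regions (x axis), near Rab genes (green) and overall (grey); dashed lines give windows 5 kb to the right. The share near Rab genes is 7.41%, 11.8% and 24.0% in the 3 sets, and each interval includes the share over all regions of that kind.

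Some of these elements are printed as examples, with the repeated hexamers in capitals and the spacer in lower case. Hormone-only matches at Rab24, Rab34 and Rab3a and a match in all 6 libraries at Rab15, each with 1 mismatch, are among those left out. From hormone-only regions come Rab13 at chr3:90001649-90001663 (minus strand), 2 for Rab11a at chr9:64540084-64540098 and chr9:64550179-64550193 (minus strand), and Rab4b at chr7:27965285-27965299 (minus strand). From regions in all 6 libraries come Rab5c at chr11:100553465-100553479 (plus strand), Rab11b at chr17:33911372-33911386 (minus strand), Rab37 at chr11:115043347-115043361 (minus strand) and Rab8b at chr9:66790671-66790685 (minus strand). Rab23 at chr1:33825061-33825075 (minus strand) comes from a region with 2 vehicle libraries.
Rab13: AGGTGAcaaAGGTGA
Rab11a: AGGTGGagaAGTTCA
Rab11a: GGGTGAcagAGTTCC
Rab4b: GGTTCAgggAGGTTA
Rab5c: GGGTGAcgaAGTTCA
Rab11b: TGGTGActgAGTTCA
Rab37: GGGTCAaagGGTTCT
Rab8b: GGTTCAggaAGCTCA
Rab23: AGGTCAccgGGTTCA

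The elements of Rab13, Rab5c and Rab23 have 0 mismatches and the others 1. With 1 full match in each kind of region, the examples allow no comparison between the kinds. Rab13 itself, 16.0 kb from that site, is not its nearest start, which is Rps27. The Rab5c element lies 46.1 kb downstream of the Rab5c start, at the promoter of Zfp385c. The regions with the 2 Rab11a elements are centred 33442 and 23431 bp from the closest of its annotated starts.

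Of 7 further motifs, searched without mismatch on both strands in the 27 Rab promoter regions, each was found in 0 to 8. The cyclic AMP response element TGACGTCA was found in 1 (3.70%), that of Rab25, against 0.883% of all promoter regions. The GC box GGGCGG was found in 8 (29.6%, against 26.2%), the ETS motif CCGGAAG in 4 (14.8%, against 6.83%), the CCAAT box ATTGG in 3 (11.1%, against 21.0%) and the GATA motif AGATAA in 2 (7.41%, against 9.58%). AP-1 (TGANTCA, 6.58% of all) and the E-box CACGTG (4.84% of all) were found in 0 of the 27 windows. With 27 regions, 1 region is 3.70%, so these shares are coarse. The single overlap between matches of different motifs was at Rab17, where the DR3 overlaps an ETS motif.

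The machinery around the Rabs was counted from 4 lists with 75 genes, all found in the annotation: exchange factors and GTPase-activating proteins, effectors of apical Rab11 traffic, endosome effectors, and the prenylation and GDI genes. Of these, 14 (18.7%) had more peaks within 50 kb in every 1,25(OH)2D3 library, against 16.0% of all genes, and 0 had fewer. A hormone-only promoter region was found at 7 (9.33%, against 4.21% of all genes) and a promoter region in all 6 libraries at 3 (4.00%, against 2.47%). Their mean was 5.56 ± 1.49 peaks with 1,25(OH)2D3 and 3.42 ± 2.73 with vehicle (SD, n = 3 each), but their median length of 52.2 kb is above that of the Rab genes. Myo5b, the motor that binds Rab11a and Rab8a, had 21, 29 and 36 peaks with 1,25(OH)2D3 and 5, 11 and 19 with vehicle. Rab11fip1, a Rab11 adaptor, had 7, 8 and 9 peaks with 1,25(OH)2D3 and 2, 2 and 4 with vehicle. The groups did not overlap for either gene. Rab11fip3, another adaptor, had 1 promoter region that was hormone-only, 132 bp upstream of the closest start, and 1 in all 6 libraries, 265 bp upstream. Stx3, the apical syntaxin of enterocytes, and Exoc6, a subunit of the exocyst tether, also had hormone-only promoter regions, 528 bp upstream and 506 bp downstream. In the other lists these were at Rin1, Dennd1b, Dennd2d and Dennd5b, all exchange factor genes, and none was at a prenylation or GDI gene. The merged Dennd5b region is centred near the edge of the window, 925 bp downstream of the closest start. No peak of 1,25(OH)2D3 replicate 1 was itself centred within 1 kb of a Dennd5b start.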

How the data were processed

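VDR ChIP-seq peak lists of 6 mouse intestinal epithelium libraries were analysed, 3 from mice given 1,25(OH)2D3 and 3 given vehicle, grouped by their titles. The deposited positions come from Bowtie alignment to mm9, per the submitters' processing notes, and from HOMER in factor mode, each library alone, per the file headers. The headers give a false discovery rate of 0.001, at least 4-fold over the input and the local 10 kb, and a Poisson p of 1e-04. The deposited score is 1 for every peak, per the file values, so list order served as rank. Which value that order follows is not stated, so a high rank is not a known measure of strength. The 1 input library carries the hormone dose and served all lists.

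By its centre, each peak on chromosomes 1 to 19, X or Y was assigned to protein-coding genes of GENCODE mouse version 1 (Ensembl 65, NCBI build 37, which is mm9). Regions were merged at 1 bp overlap. Python 3.11.15, numpy 2.4.6, scipy 1.17.1, pysam 0.24.0 and matplotlib 3.10.9 were used, and the counting was tested on simulated data. A gene was called when every 1,25(OH)2D3 library lay above (or below) every vehicle library, and no test was made over the members. The deviations of same-numbered libraries from their group means correlated at 0.407, 0.133 and 0.368 over 22367 genes. All were above 0.1, so the numbers were treated as pairs. Differently numbered libraries correlated at -0.419 to 0.0804, the highest value little below the 0.133 of replicate 2. The labels do not say what a number shares, and replicate 3 is deep in both groups.

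Values per library were given by rule for Rab genes with a hormone-only promoter or 1 in all 6 libraries, the 12 with the most peaks with 1,25(OH)2D3 (ties by name, which kept Rab34 and Rab6 and left out Rab6b), the 5 leaning most to vehicle, and Rab11a, Rab25, Rab8a, Rab10, Rab5a, Rab7, Rab17 and Rab27a. Other Rab genes named with values (Rab1b, Rab20, Rab5b, Rab5c) and those named from the other lists were chosen after the values were seen. The members, roles and lists were chosen with earlier results of these data known.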

Additional observations from a re-analysis of the deposited data

How the results depend on the processing

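Of 102 recomputed summary results, 68 stayed within the limit set for them, 34 moved and none changed direction. Leaving out 1 library at a time gave 1 to 7 hormone-only promoters, 0 to 3 promoters in all 6, 13 to 23 genes higher and 0 to 1 lower within 50 kb, 19 to 32 with a hormone-only region and 15 to 23 with a region in all 6. With the replicate block, 21 genes were higher, and no other call changed with the pairing; with replicates 1 and 2 only, 24 were higher and 2 promoters were hormone-only. Within 20 kb, 9 genes had a hormone-only region and 8 a region in all 6; within 10 kb these were 5 and 5, with 5 genes higher; with each peak given to its closest gene, 4 and 4, with 6 higher. With lists of equal length, 2 genes were higher, 4 had a hormone-only region, 0 had a hormone-only promoter, and the differences were 0.667 genes and 0.0774 peaks. Hormone-only promoters numbered 2 at 2.5 kb, those of Rab25 and Rab4b. Promoters in all 6 numbered 0 at 500 bp and 0 with the outermost start. DR3 shares were 0% and 2.14% with 0 mismatches, 51.9% and 49.0% with at most 2, and 7.71% of the 50 kb regions within 50 bp. The cause of these shifts was not tested. Of the 24 Rab genes recomputed singly, the difference changed sign in some setting for Rab17, Rab18, Rab27a, Rab27b, Rab2a, Rab39, Rab3c, Rab5a and Rab6. Within 10 kb it was 0 for Rab11a, 1.67 for each of Rab25, Rab3a, Rab40c and Rab4a, and 3 for Rab4b. In every library, the shallow ones included, a missing peak does not show missing receptor, and the part that depth had was not tested.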
